A study of Homo sapiens with 7 samples.

Results

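FOXA1 peaks that LNCaP cells had with the LSD1 inhibitor GSK2879552 and not with its vehicle numbered 6573. They were chosen by peak position in the GSK2879552 and DMSO lists, as GSK2879552 peaks on chromosomes 1 to 22 and X that overlapped no DMSO peak by 1 bp or more. They made up 10.3% of the 63866 GSK2879552 peaks on these chromosomes (95% Wilson interval 10.1 to 10.5), and the other 57293 overlapped a DMSO peak. The 7 lists of the series hold 464730 peaks there. Because those 2 lists chose the peaks, their number, scores, widths and distances to DMSO peaks are a description. The lists of the other 5 libraries played no part in the choice, though that of the combination is from the same line.

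FOXA1 is a forkhead pioneer factor: it binds its sites in closed chromatin and opens them to other factors, among them the androgen receptor in prostate epithelium. LSD1 is a demethylase that removes methyl groups from histone H3 and from other proteins, FOXA1 among them. SETD7 is a lysine methyltransferase with histone and non-histone substrates. An FOXA1 peak is a stretch of genome where fragments pulled down with the FOXA1 antibody pile up, and its presence in a list means that it passed that list's threshold.

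LNCaP cells, an androgen-responsive human prostate cancer line, were treated for 4 hours with GSK2879552 plus the SETD7 inhibitor PFI-2, with GSK2879552 alone, or with DMSO. The treatment field of the first library can be read as with or without PFI-2, and its title was followed. In 22Rv1 cells (CWR22-Rv1 in the labels), a second prostate cancer line, FOXA1 was mapped with a stable hairpin against SETD7 (shSETD7), with a control hairpin (shCTL), and in vehicle cells, where SETD7 was mapped too. Each group is 1 library of 1 line and is represented by the authors' peak list on build hg19, so no difference between conditions could be tested and no spread between replicates is known. All intervals are for counting error over peaks only, and read depth is unknown.

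The FOXA1 lists compared held 83352 peaks with the combination, 63866 with GSK2879552 and 79741 with DMSO. The 22Rv1 lists held 63682 (shSETD7), 83633 (shCTL) and 65093 (vehicle) FOXA1 peaks, and 25363 SETD7 peaks. In the vehicle FOXA1 file every peak name contains siNTC, a tag absent from the labels, and the name vehicle is that of the labels. Peaks of the GSK2879552 list were the narrowest of the 3 LNCaP lists, with a median of 263 bp, against 333 bp in the DMSO list. Each peak carries 1 score of the authors, a whole number whose definition is not given, and scores were compared only within a list. The marks of LNCaP or 22Rv1 identity cannot be checked in peak lists.

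The peaks without a DMSO peak were weak ones of their list. Their median score was 121 (quartiles 99 and 144), against 237 (148 and 432) for the GSK2879552 peaks at a DMSO peak. The lowest 3 of 10 score groups (deciles) of the GSK2879552 list held 5030 of them, or 76.5%. Decile 1, with scores of 48 to 104, held 2005 of them, which was 30.8% of that decile. Decile 6, with scores of 214 to 266, held 207, or 3.20% of the decile. Above decile 6 lay 63 of them. In decile 10, which starts at a score of 715, 0 of 6383 peaks lacked a DMSO peak, which allows a share of up to 0.047%.

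They were also narrow. Their median width was 197 bp (interval 196 to 198), and 1275 of them, or 19.4%, had the shortest width in the list, 178 bp. To compare peaks of like strength, the GSK2879552 peaks at DMSO peaks were weighted so that each decile counted as much as it did among the peaks without a DMSO peak. These score-weighted peaks had a median width of 214 bp, and 11.9% were 178 bp wide. The smaller width was seen in each of deciles 1 to 7: in decile 1 the medians were 185 and 197 bp, and in decile 7 they were 255 and 282 bp, without and with a DMSO peak.

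The combination of GSK2879552 and PFI-2 split the 6573 peaks into nearly equal classes. A combination peak overlapped 3272 of them, or 49.8% (48.6 to 51.0), where 92.1% of all GSK2879552 peaks had one. Among score-weighted GSK2879552 peaks at DMSO peaks the share was 91.8% (91.4 to 92.2), a difference of −42.0 percentage points. The compared peaks were chosen by presence or absence in the DMSO list, which is of the same line as the combination list. The difference is therefore a description, and an effect of the combination was not tested. The other 3301 of the 6573 peaks had no combination peak. Of these, 401 had one within 1 kb, and the median distance to the nearest was 9179 bp. Presence with the combination followed strength, with 41.4% in decile 1 (39.3 to 43.6), 58.1% in decile 4 (54.7 to 61.4) and 82.5% in decile 7 (70.6 to 90.2). Peaks at DMSO peaks had 88.1% in decile 1 and 99.9% in decile 7, so the gap narrowed with score over deciles 1 to 7. The 6 peaks of deciles 8 and 9 without a DMSO peak all had a combination peak. The median score was 126 with a combination peak and 116 without one, and the median width 203 and 192 bp.

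**Figure D1:**
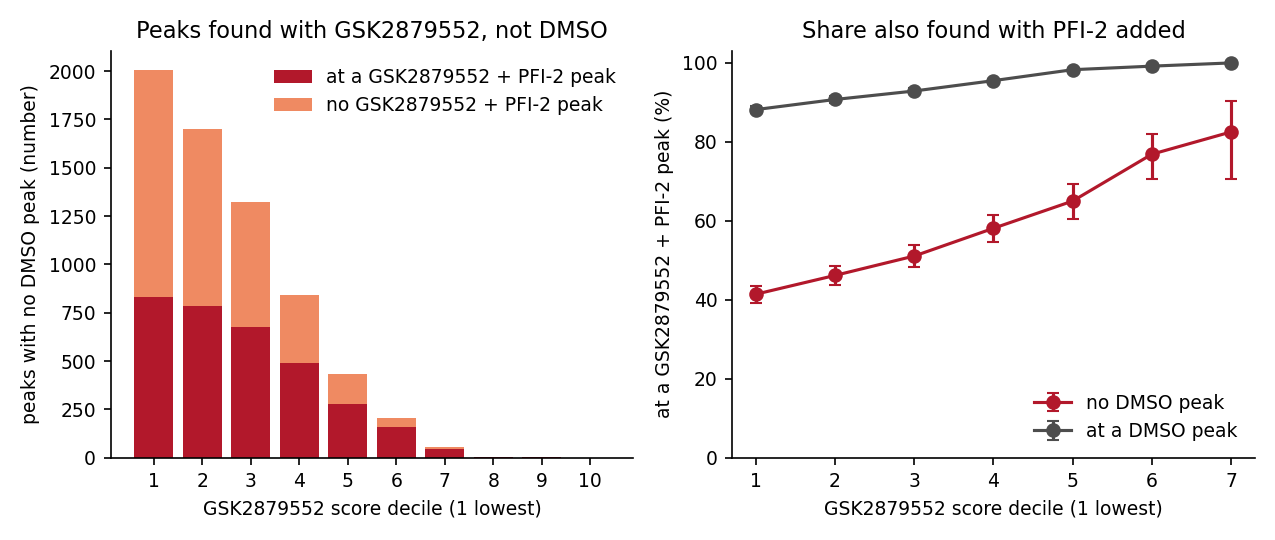
Left, number of GSK2879552 FOXA1 peaks without a DMSO peak in each decile of the GSK2879552 score, split by the presence of a combination peak. Right, share of GSK2879552 peaks at a combination peak in deciles 1 to 7, without and with a DMSO peak (bars, 95% Wilson intervals). The numbers drop from decile 1 to decile 7, and the share without a DMSO peak stays below the other in every decile shown.

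The combination peaks at these sites were themselves weak. Their median score was 136 in a list whose median is 237, and 95.4% lay in deciles 1 to 5 of that list. For the score-weighted GSK2879552 peaks at DMSO peaks, the combination peaks had a median score of 208, and 61.0% lay in those deciles. Sites found with the combination and GSK2879552 but not with DMSO were thus mostly weak in both lists.

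The strongest of these sites were few. The highest score, 605, was at chromosome 11 from 77597411 to 77597735, in decile 9 of the GSK2879552 list and 3785 bp from the nearest DMSO peak. It was a peak in 5 of the 7 lists: decile 6 with the combination, decile 8 with shSETD7, decile 8 with shCTL and decile 10 in vehicle 22Rv1 cells, besides GSK2879552. The second, with a score of 505, was at chromosome 17 from 45249179 to 45249487. It was a combination peak of decile 6 and a vehicle 22Rv1 peak of decile 9, with the nearest shSETD7 and shCTL peaks 14436 and 14525 bp away. The third was at chromosome 4 from 80273572 to 80273909 (score 429), and it overlapped a peak in every list but that of DMSO, SETD7 included. The site on chromosome 20 from 5825056 to 5825324 (score 392) lay 1119 bp from a DMSO peak and was in decile 10 of both the shSETD7 and the vehicle list. Over the 10 highest scores with a combination peak (328 to 605), 9 were peaks in vehicle 22Rv1 cells, 6 with shCTL, 6 with shSETD7, and 3 were SETD7 peaks. Their combination peaks lay in deciles 3 to 6, none in a higher one. In the GSK2879552 list these 10 sites lay in deciles 7 to 9. Of the GSK2879552 peaks at a DMSO peak, 48.3% in decile 7 and 67.8% in decile 9 were vehicle 22Rv1 peaks. For shCTL these shares were 56.8% and 71.0%, for shSETD7 32.3% and 45.3%, and for SETD7 1.17% and 1.04%.

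Among the peaks without a combination peak, the highest score was 330, at chromosome 9 from 85214549 to 85214795. That site was a peak in no other list, and its nearest DMSO peak lay 1346 bp away. The next, with a score of 307, was at chromosome 14 from 60418659 to 60418918. It was a strong site of the other line, in decile 10 with shSETD7, decile 9 with shCTL and decile 9 in vehicle cells, and lay 9928 bp from a DMSO peak. Scores of the 10 highest ran from 269 to 330, and 7 of them were vehicle 22Rv1 peaks, 5 shCTL peaks, 5 shSETD7 peaks and 2 SETD7 peaks. All 10 were of decile 7 in the GSK2879552 list. In that decile, 48.3% of the peaks at a DMSO peak were vehicle peaks, 56.8% shCTL, 32.3% shSETD7 and 1.17% SETD7 peaks. From the 10 sites, the nearest combination peak was 290 to 10108 bp away. Sites of this class and of the other stood side by side on chromosome 17 between 45.2 and 45.3 Mb, where 5 of 9 GSK2879552 peaks had no DMSO peak. All 5 were vehicle 22Rv1 peaks, and 1 had a combination peak.

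Few peaks lay within 20 bp of the limit set by the 1 bp overlap rule. The smallest distance to a DMSO peak was 3 bp, at chromosome 11 from 10530095 to 10530290 (score 74), and 8 peaks lay within 20 bp of one, with a median score of 95.5. On the other side, 4 GSK2879552 peaks overlapped a DMSO peak by 20 bp or less, with a median score of 83. The smallest such overlap was 18 bp, at chromosome 16 from 58637383 to 58637605 (score 73). Other rules chose other numbers of peaks, 10169 with reciprocal 50% overlap and 7265 with midpoints within 200 bp.

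The median distance to the nearest DMSO peak was 9328 bp (quartiles 3295 and 20866 bp). A DMSO peak lay within 1 kb of 781 of them, or 11.9% (11.1 to 12.7), and within 10 kb of 52.2%. The share within 1 kb depended on the overlap rule that chose the peaks: it was 43.0% where sharing required reciprocal 50% overlap and 20.3% where it required midpoints within 200 bp. Under those 2 rules the share also counts chosen peaks that overlap a DMSO peak by 1 bp or more. For the score-weighted GSK2879552 peaks at DMSO peaks, the nearest DMSO peak that they did not overlap was at a median of 11263 bp. It lay within 1 kb of 7.48% and within 10 kb of 45.6%. The 2 distances are unlike quantities, since the second leaves out the overlapped DMSO peak, and the rule itself used the first, so nothing is read from their difference. For the peaks with and without a combination peak the shares within 1 kb were close, at 12.04% and 11.72%.

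**Figure D2:**
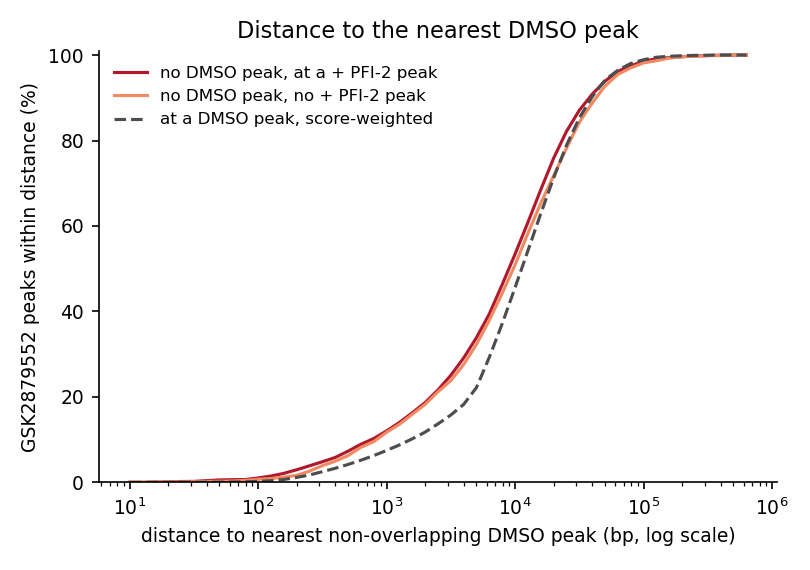
Cumulative share of GSK2879552 peaks by distance to the nearest DMSO peak that they do not overlap (log scale), for peaks without a DMSO peak, split by a combination peak, and for score-weighted peaks at a DMSO peak. The solid curves lie above the dashed one at short distances, with 11.9% of all peaks without a DMSO peak within 1 kb, against 7.48%; the dashed curve leaves out the DMSO peak that is overlapped, so the curves show unlike quantities.

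Farther out, 108 sites lay more than 100 kb from any DMSO peak. Of these, 52 were shSETD7 peaks (48.1%, 39.0 to 57.5), 57 shCTL peaks (52.8%, 43.4 to 61.9) and 63 vehicle 22Rv1 peaks (58.3%, 48.9 to 67.2). Of all GSK2879552 peaks, 33.8% were shSETD7 peaks, 54.3% shCTL peaks and 46.4% vehicle peaks, without score weighting. GSK2879552 peaks at DMSO peaks, weighted to the deciles of all 6573 peaks, gave 23.4%, 42.5% and 30.7%. Those of them more than 100 kb from any other DMSO peak were not examined apart. In the nearer bands (within 1 kb, 1 to 10 kb and 10 to 100 kb) the shSETD7 shares were 33.2%, 30.4% and 34.6%, those of shCTL 44.2%, 39.3% and 41.7%, and those of the vehicle list 33.3%, 35.2% and 37.5%. The combination list held 43.5% of the distant sites (34.6 to 52.9), and 50.4%, 51.2% and 48.6% of those in the nearer bands. The farthest site, on chromosome 7 from 56911682 to 56911859, lay 495429 bp from a DMSO peak. Its score was 121, of decile 2 in the GSK2879552 list, yet it was in decile 10 of all 3 FOXA1 lists of 22Rv1. A like site on chromosome 18 from 4477671 to 4477895 (score 203) lay 459752 bp from a DMSO peak and was in decile 10 with shSETD7, decile 10 with shCTL and decile 9 in vehicle cells. Neither had a combination peak.

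Presence in the 22Rv1 FOXA1 lists differed by list. Of the 6573 peaks, 2168 were shSETD7 peaks, or 33.0% (31.9 to 34.1), where 33.8% of all GSK2879552 peaks were. The score-weighted peaks at DMSO peaks gave 23.4% (22.8 to 23.9), a difference of 9.60 points (8.34 to 10.9). For the shCTL list the count was 2709, or 41.2% (40.0 to 42.4), where 54.3% of all GSK2879552 peaks had one. The score-weighted share was 42.5% (41.9 to 43.2), and the difference, −1.31 points (−2.67 to 0.0503), lay within counting error. For the vehicle list it was 2394, or 36.4% (35.3 to 37.6), where 46.4% of all GSK2879552 peaks had one. The score-weighted share there was 30.7% (30.1 to 31.3), a difference of 5.73 points (4.42 to 7.04). The unweighted shares of all GSK2879552 peaks include the strong sites, of which the peaks without a DMSO peak have few.

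At least 1 of the 3 FOXA1 lists of 22Rv1 held 3529 of the 6573, or 53.7% (52.5 to 54.9), where 63% of all GSK2879552 peaks were held. The score-weighted share was 50.4% (49.7 to 51.0), a difference of 3.31 points (1.93 to 4.69). The direction depended on the overlap rule, with −2.46 points under reciprocal 50% overlap and 0.798 (−0.638 to 2.24) with gaps of up to 1 kb. The differences for each single list and the patterns of the 3 lists were computed with the 1 bp rule only. All 3 lists held 1322, or 20.1% (19.2 to 21.1), where they held 25.3% of all GSK2879552 peaks and 14.3% (13.9 to 14.8) of the score-weighted ones. The pattern of the 3 lists differed as well. The shCTL and vehicle lists without the shSETD7 list held 491, or 7.47%, against 10.8% of the score-weighted peaks. The shCTL list alone held 445, or 6.77%, against 11.6%. The vehicle list alone held 425, or 6.47%, against 4.65%, and the shSETD7 list alone 239, or 3.64%, against 2.26%. None of the 3 lists held 3044, or 46.3%, against 49.6%. The patterns with shSETD7 and the vehicle list alone were thus above the score-weighted peaks, and those with shCTL and without shSETD7, as well as absence from all 3, were below.

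**Figure D3:**
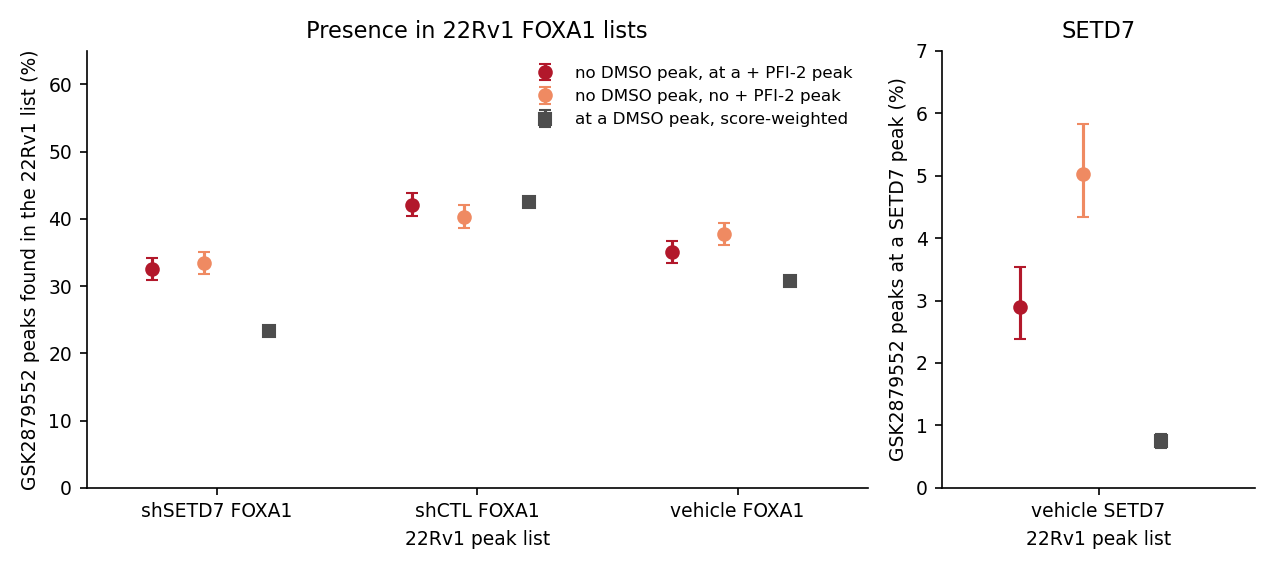
Share of GSK2879552 peaks found in each 22Rv1 list, for peaks without a DMSO peak, split by a combination peak, and for score-weighted peaks at a DMSO peak (bars, 95% intervals for counting error). For shSETD7 FOXA1, vehicle FOXA1 and SETD7 both classes lie above the score-weighted peaks, and for shCTL FOXA1 they do not.

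The difference held across most score deciles. With shSETD7 the shares were 28.7% and 20.9% in decile 1 and 46.4% and 30.0% in decile 6, without and with a DMSO peak. In decile 7, where 57 peaks had no DMSO peak, they were 31.6% (21.0 to 44.5) and 32.3%. With the vehicle list the shares were 27.5% (25.6 to 29.5) and 26.0% (24.7 to 27.3) in decile 1, where the intervals overlapped, and 53.8% and 38.8% in decile 5. At the sites shared with 22Rv1, the shSETD7 peaks had a median score of 182, against 172 for those of the score-weighted peaks, in a list whose median is 82. Their shCTL peaks had a median score of 181, against 183, in a list with a median of 136, and their vehicle peaks 110, against 99, in a list with a median of 85.

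**Figure D4:**
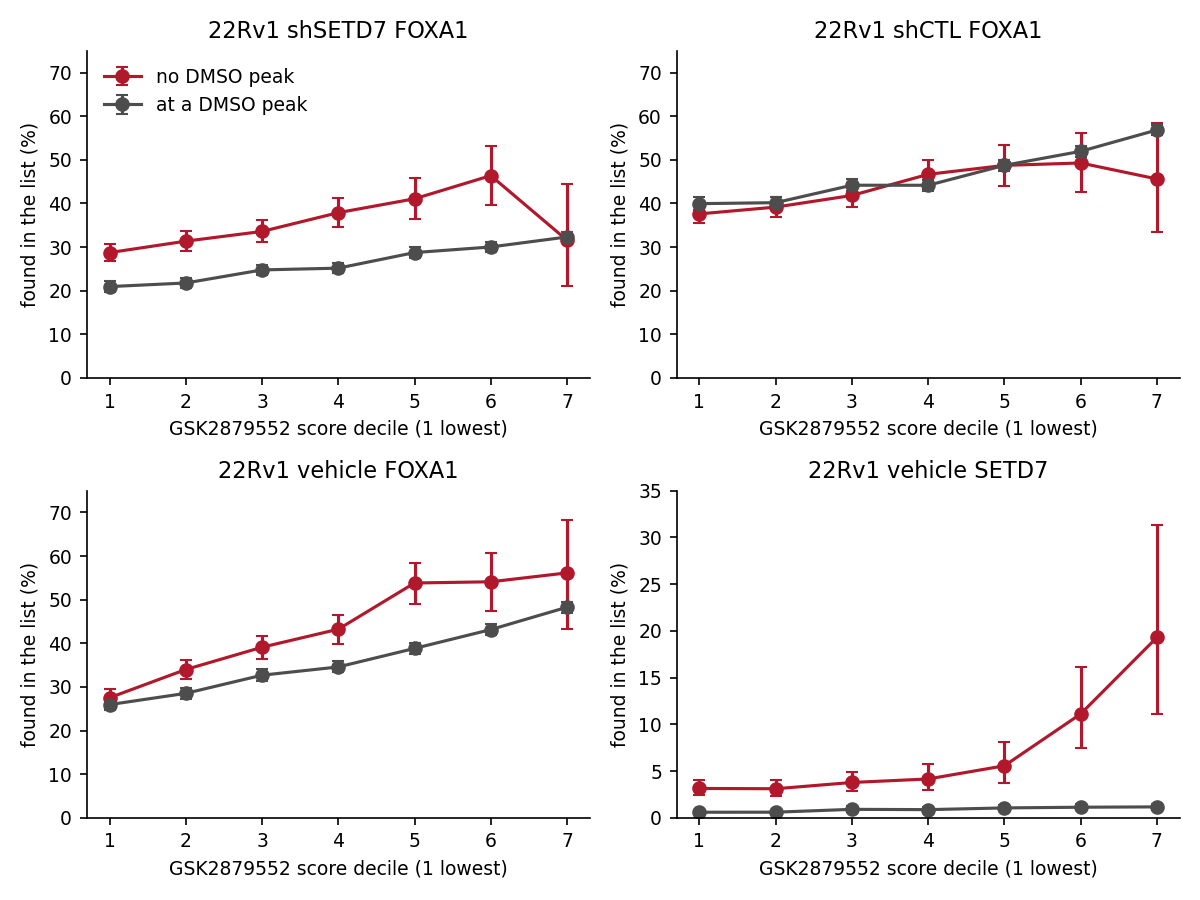
Share of GSK2879552 peaks found in the 4 22Rv1 lists by decile of the GSK2879552 score, without and with a DMSO peak (bars, 95% Wilson intervals). For shCTL FOXA1 the curves run close in deciles 1 to 6. In decile 7 they are at 45.6% (33.4 to 58.4) without and 56.8% with a DMSO peak. For SETD7 the peaks without a DMSO peak reach 19.3% in decile 7, against 1.17% of those at a DMSO peak.

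SETD7 peaks of 22Rv1 cells overlapped 261 of the 6573, or 3.97% (3.53 to 4.47), where 1.3% of all GSK2879552 peaks overlapped one. Among the score-weighted peaks at DMSO peaks the share was 0.751% (0.641 to 0.861), a difference of 3.22 points (2.73 to 3.70). With reciprocal 50% overlap the shares were 0.590% and 0.178%, a difference of 0.412 points, and with midpoints within 200 bp the difference was 1.57 points. The difference was larger at higher scores. In decile 1 the shares were 3.14% without a DMSO peak and 0.599% with one, and in decile 6 they were 11.1% (7.52 to 16.1) and 1.14%. In decile 7, 11 of 57 peaks without a DMSO peak were SETD7 peaks, or 19.3% (11.1 to 31.3), against 1.17%. The 261 sites met 244 different SETD7 peaks, and 69.3% of the sites met one in the highest decile of SETD7 scores. For the score-weighted peaks at DMSO peaks this share was 30.6%.

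The sites at SETD7 peaks were unlike the rest of the 6573. In 22Rv1, 221 of the 261 were vehicle FOXA1 peaks, or 84.7% (79.8 to 88.5), against 37.3% (35.9 to 38.6) of the others weighted to the same score deciles. With shCTL the shares were 62.5% (56.4 to 68.1) and 41.5%, and with shSETD7 60.9% (54.9 to 66.6) and 33.2%. All 3 FOXA1 lists held 123 of them, or 47.1%, against 19.0% of the others without weighting. None of the 3 held 23 of them, or 8.81%, against 47.9%. For all GSK2879552 peaks these shares were 25.3% and 37.0%. The combination list held 95 of the 261, or 36.4% (30.8 to 42.4), against 54.7% of the score-weighted others. Besides the site on chromosome 4 already given, the highest scores were on chromosome 16 from 33950159 to 33950493 (347), chromosome 1 from 143283614 to 143283934 (328), chromosome 12 from 34846795 to 34847087 (323) and chromosome 10 from 35310488 to 35310793 (320). All 5 were vehicle FOXA1 peaks of decile 8 or 9 and SETD7 peaks of decile 10.

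Many of these sites lay beside the longest stretch of each chromosome that held no peak of any list. On the chromosomes with 2 mapped arms these stretches were up to 21.1 Mb long and lie where hg19 has its centromere gaps; on chromosomes 13, 14, 15, 21 and 22 they start at the chromosome end. Within 2 Mb of the stretch lay 312 of the 6573, or 4.75% (4.26 to 5.29), where 2.79% of all GSK2879552 peaks and 2.48% (2.27 to 2.69) of the score-weighted ones did. Among them were the SETD7 sites named above on chromosome 16 (1.33 Mb from the stretch), chromosome 1 (0.748 Mb) and chromosome 12 (0.00699 Mb). The site farthest from a DMSO peak, on chromosome 7, was also among them, at 1.11 Mb. Of these 312 sites, 126 were SETD7 peaks, or 40.4% (35.1 to 45.9), against 8.08% (6.23 to 9.93) of the score-weighted peaks at DMSO peaks in the same regions. In 22Rv1, 223 were vehicle FOXA1 peaks, or 71.5% (66.2 to 76.2), against 37.3% (33.8 to 40.8). Away from these regions the share at SETD7 peaks was 2.16% (1.82 to 2.55), against 0.586% (0.485 to 0.687). The difference remained there and was smaller. Only the longest stretch of each chromosome was used, so the flanks of any other peak-free stretch count as away. The vehicle FOXA1 shares away from them were 34.7% and 30.5%, those of shSETD7 32.6% and 23.2%, and those of shCTL 40.8% and 42.3%. No artefact-prone regions were removed, and the part of repeated sequence in these overlaps was not tested.

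**Figure D5:**
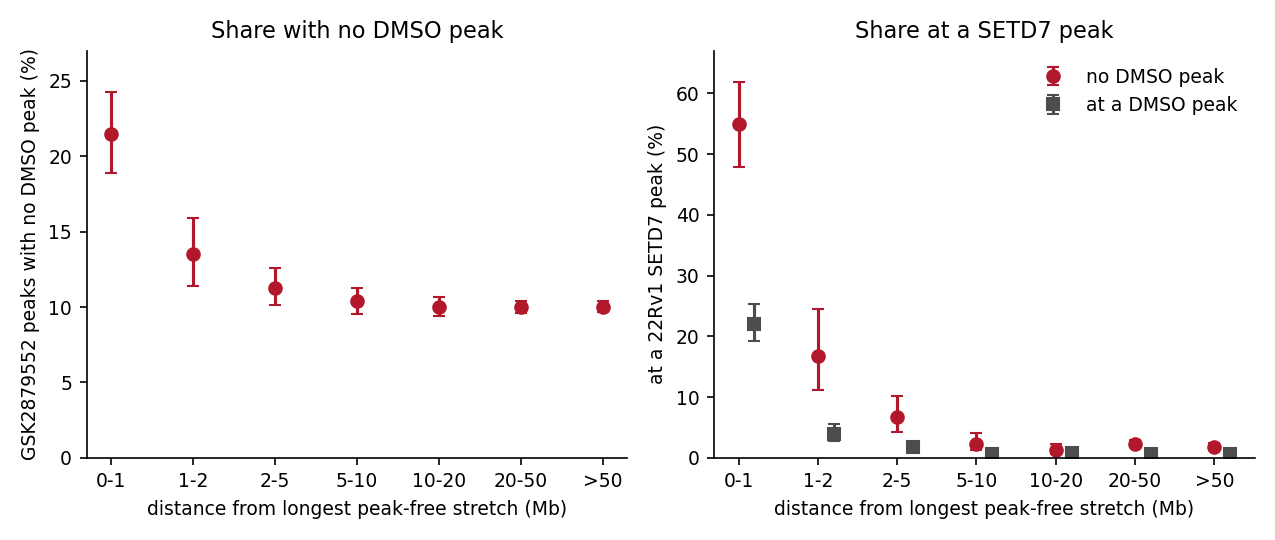
GSK2879552 peaks by distance from the longest peak-free stretch of their chromosome: left, share without a DMSO peak; right, share at a 22Rv1 SETD7 peak, without and with a DMSO peak and not score-weighted (bars, 95% Wilson intervals). Within 1 Mb, 21.5% had no DMSO peak, and 54.9% of those were SETD7 peaks, against 22.1% of those at a DMSO peak; beyond 50 Mb the share at a SETD7 peak was 1.78%, against 0.667%.

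The share of GSK2879552 peaks without a DMSO peak was 21.5% within 1 Mb of the stretch (18.9 to 24.3), 13.5% from 1 to 2 Mb (11.4 to 15.9) and between 9.98% and 11.3% in every band farther out. Of the 193 sites within 1 Mb, 106 were SETD7 peaks, or 54.9% (47.9 to 61.8), against 22.1% (19.2 to 25.3) of the GSK2879552 peaks at a DMSO peak in that band. The 1 Mb windows with the largest shares were among them: 16 of 35 peaks on chromosome 16 from 46 to 47 Mb, and 20 of 46 on chromosome 4 from 49 to 50 Mb. Of those 16 and 20 sites, 11 and 17 were SETD7 peaks. Next came chromosome 16 from 33 to 34 Mb with 17 of 44, of which 8 were SETD7 peaks. Then followed chromosome 21 from 16 to 17 Mb (10 of 31) and chromosome 20 from 49 to 50 Mb (10 of 33), where none of the sites met a SETD7 peak. These windows were picked as the highest shares of 1744 windows, and whether they exceed counting error was not tested. Of the 5 windows of 100 kb with most such sites, picked from 23343, 4 lay beside a stretch. The other window, on chromosome 2 from 133 to 133.1 Mb, lay 37.6 Mb from one. It held 7 sites without a DMSO peak among 11 GSK2879552 peaks, and all 7 were both SETD7 and vehicle FOXA1 peaks.

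Across chromosomes the share without a DMSO peak varied little, with the lowest on chromosome 3 (8.86%, 8.09 to 9.70) and the highest on chromosome 16 (11.8%, 10.4 to 13.4). On chromosome 16, 23 of 199 such sites were SETD7 peaks, or 11.6%. Chromosomes 1, 3, 7, 8 and 12, which hold 70.2% of the SETD7 peaks, held 31.0% of the 6573 and 34.9% of the 261 sites at SETD7 peaks (29.3 to 40.8). Of the 63866 GSK2879552 peaks, 43356 lay on the other chromosomes. There 10.5% had no DMSO peak, against 10.3% of the whole list, so the 6573 were spread much as that list was.

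The classes with and without a combination peak differed in the same lists. Of those with a combination peak, 2.85% were SETD7 peaks (2.33 to 3.48), against 5.93% (4.94 to 6.93) of those without one, weighted to the same deciles and without 6 peaks of deciles 8 and 9. For the vehicle FOXA1 list the shares were 34.97% (33.3 to 36.6) and 41.1% (39.2 to 42.9), for shSETD7 32.5% and 35.2%, and for shCTL 42.1% (40.4 to 43.8) and 41.7% (39.8 to 43.5). Within 2 Mb of a peak-free stretch lay 3.40% and 6.79%. The difference, with minus without a combination peak, was −6.09 points for the vehicle list and −3.09 points for SETD7, while for shCTL it was 0.392 points (−2.11 to 2.90), within counting error.

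Besides the DMSO list, 5 other lists were counted: the combination, the 3 FOXA1 lists of 22Rv1 and SETD7. None of the 5 held 1492 of the 6573, or 22.7% (21.7 to 23.7), with a median score of 110. Among the score-weighted peaks at DMSO peaks, all in the DMSO list by choice, the share was 3.51% (3.24 to 3.78). The combination list, among those 5, held 49.8% of the 6573 and 91.8% of the score-weighted peaks. All 5 lists held 50 of the 6573, or 0.761% (0.578 to 1.00), with a median score of 156. For the score-weighted peaks this share was 0.331% (0.259 to 0.403). Of these 50, 21 lay within 2 Mb of a peak-free stretch, or 42.0% (29.4 to 55.8), where 4.75% of all 6573 did.

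The same description was made for peaks of the other LNCaP lists that lacked a counterpart. These comparisons share libraries, so their values are only set side by side. Of the 12676 combination peaks without a DMSO peak, 1.04% were SETD7 peaks, against 0.659% of combination peaks at a DMSO peak weighted by their own score deciles. Of the 25040 combination peaks without a GSK2879552 peak, 0.292% were, against 1.60%. Of the 5062 GSK2879552 peaks without a combination peak, 4.15% were, against 0.812%. Of the 9095 DMSO peaks without a combination peak, 0.957% were, against 0.735%, a difference within counting error (−0.0111 to 0.454 points). Of the 22937 DMSO peaks that no GSK2879552 peak overlapped, 0.323% were, against 1.44%. For vehicle FOXA1 of 22Rv1 these 5 pairs were, in the same order, 21.9% and 23.7%, 18.6% and 33.4%, 37.7% and 29.9%, 19.6% and 24.2%, and 18.0% and 34.1%. For shSETD7 they were 19.0% and 20.4%, 12.7% and 30.7%, 35.4% and 22.97%, 20.99% and 20.3%, and 13.2% and 30.3%. For shCTL they were 30.6% and 34.8%, 28.0% and 43.7%, 43.5% and 41.4%, 31.3% and 34.2%, and 28.2% and 44.0%. GSK2879552 peaks without a DMSO peak, and those without a combination peak, thus lay above their score-weighted counterparts for vehicle FOXA1, shSETD7 and SETD7. Those without a combination peak did so for shCTL too. These sets overlap and are not separate observations. Of the 5062 peaks without a combination peak, 3301 also had no DMSO peak, and these held 166 of the 210 overlaps with SETD7 peaks. Combination peaks without a DMSO peak were also above theirs for SETD7, by 0.383 points (0.174 to 0.591). They were below for vehicle FOXA1, shSETD7 and shCTL.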

How the data were processed

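FOXA1 and SETD7 were mapped by chromatin immunoprecipitation sequencing. The submitters' processing notes name MACS2 2.1.4, BWA 0.7.17-r1188, SAMtools 1.9 and FastQC 0.11.9 on build hg19, without saying what each did. The threshold for peaks is not given in the sources used here, nor is an input library. Each deposited file holds 1 score per peak, the authors' own value, used only within a list.

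Groups came from the titles. A peak was shared at an overlap of at least 1 bp. Deciles are of the GSK2879552 list, with equal scores kept together. Score-weighted shares weight each decile of GSK2879552 peaks at DMSO peaks by its count among peaks without one, and their 95% intervals use the binomial variance within deciles and a normal approximation; others are Wilson intervals. There was no test, since each group is 1 library. Total counts per library were not used here. The overlap code was checked against bedtools 2.31.1, and the weighting was tested on simulated data. Software was Python 3.11.15 with matplotlib 3.10.9, pandas 2.3.3, numpy 2.4.6 and scipy 1.17.1.

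The peaks, lists and measures were chosen with earlier results of these data known. Named sites are the highest scores of each class (10 with and 10 without a combination peak, 5 at SETD7 peaks, 5 in all 3 FOXA1 lists of 22Rv1), the 5 farthest from and 5 closest to a DMSO peak, and the 5 leading windows of 100 kb and of 1 Mb with at least 20 peaks; the site on chromosome 17 between 45.2 and 45.3 Mb was described as a group after its values were seen. The peak-free stretches were added after the data were examined. Motifs, sequences and gene names need hg19 sequence or annotation, which was not used here. Alternatives changed the overlap rule, the lists, the widths, the chromosomes and the matching.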

Additional observations from a re-analysis of the deposited data

How the results depend on the processing

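Over 7 results, 75 alternatives were run: 35 gave a value inside the interval of the reported one, 37 moved it and 3 changed its sign. The 3 were differences in the share found in at least 1 22Rv1 FOXA1 list (3.31 points), which came to −2.46 with reciprocal 50% overlap, −10.3 without score matching and −1.31 with the shCTL list alone. The same difference was 0.798 with gaps of up to 1 kb, 8.58 in the higher-scoring 50% of the GSK2879552 list, 9.60 with shSETD7 alone and 5.73 with vehicle alone. The SETD7 difference (3.22 points) was positive in all alternatives run: 0.412 with reciprocal overlap, 1.57 with midpoints within 200 bp, 12.2 in the higher-scoring 50%, 2.29 with a DMSO list of GSK2879552 length, 2.27 with FOXA1 lists of equal length, 2.33 with fixed windows of 300 bp, 2.65 with the 5000 highest SETD7 scores and 1.57 without 2 Mb around the peak-free stretches, an alternative chosen after seeing the data. The combination difference (−42.0 points) was −20.8 in the higher-scoring 50%, −32.2 with the shortened DMSO list, −47.3 with equal lists, −47.1 without score matching and −40.7 with score and width matching. The share without a DMSO peak (10.3%) came to 15.9% with reciprocal overlap, 11.4% with midpoints, 9.07% with 1 kb gaps, 0.847% in the higher-scoring 50%, and 17.7% with the shortened DMSO list and with equal lists. The share in the lowest decile (30.5%) was 28.7% with reciprocal overlap, 29.0% with midpoints and 29.2% with the shortened DMSO list. The width difference (−17 bp) was −19 bp with reciprocal overlap, −20 bp in the higher-scoring 50%, −14 bp with the shortened DMSO list and with equal lists, and −75 bp without score matching. The share within 1 kb of a DMSO peak (11.9%) was 43.0% with reciprocal overlap, 20.3% with midpoints, 17.04% in the higher-scoring 50%, 8.18% with the shortened DMSO list, 8.17% with equal lists and 13.2% with fixed windows. The values of 43.0% and 20.3% also count peaks that overlap a DMSO peak but not by those rules. Stricter rules and shorter lists alter by construction which peaks are chosen; for the rest the cause was not tested. Motif alternatives were not run for want of hg19 sequence here. No paired analysis was possible because each group is 1 library. Read depth, unknown here, limits every statement that a peak is missing from a list.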
